A study of Mus musculus with 2 samples.

Results

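The Bcl2 family decides whether the outer membrane of the mitochondrion is opened during programmed cell death, and 10 of its genes were followed here in mouse heart. They were the anti-apoptotic genes Bcl2, Bcl2l1 and Mcl1, the effectors Bax and Bak1, the BH3-only genes Bbc3, Pmaip1 and Bcl2l11, and the related mitochondrial genes Bnip3 and Bnip3l. The genes were chosen by symbol, 10 of the 22882 symbols in the deposited tables, and each of them stood on 1 row. Levels are given in FPKM, the fragments per kilobase of transcript, scaled to the mapped fragments of a library, as computed by the authors. FPKM is scaled to transcript length, so levels of different genes may be roughly compared. Length scaling does not correct for GC content or for exons that overlap other genes, both described below.

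The control group was heart of Med1fl/fl mice, in which loxP sites flank exons of Med1, a subunit of the Mediator complex that links transcription factors to RNA polymerase II. The csMed1-/- group was heart of mice with the same floxed alleles and a Cre transgene under the α-myosin heavy chain promoter, which is active in cardiomyocytes, so the other cell types of the heart keep Med1. Both groups were C57BL6/J mice of mixed gender, 23 days old and without treatment. RNA of 5 hearts was pooled for each genotype, and each pool gave 1 library. There are therefore no replicates, the variation between hearts cannot be estimated, no difference below has an error or a test, and animal, pool and genotype cannot be told apart. The controls carry the floxed alleles but are not described as carrying the Cre transgene, so an effect of Cre itself cannot be told apart from the loss of Med1.

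Med1 was listed at 3.38 FPKM in the Med1fl/fl library and at 0.412 FPKM in the csMed1-/- library, a ratio of 0.122. This gene-level value also counts reads from exons outside the floxed part and from other cell types. The FPKM of all rows summed to 780366 and 716365. Read numbers were not given with these values, and the depth behind each is unknown. Steps among the 2461 rows at or below 0.15 FPKM gave the csMed1-/- pool 1.39 times as many reads as the control, if values were scaled to mapped fragments alone. The 5 cardiomyocyte marker genes that could be compared were all more than 2-fold lower in csMed1-/- heart, beside 18.0% of all genes. They had a median log2 ratio of -2.74 and summed levels of 33886 and 9292 FPKM. The 7 fibroblast markers had a median log2 ratio of 1.23 and summed levels of 495 and 1190 FPKM. Of these 4 were more than 2-fold higher, beside 13.6% of all genes, and 3 lay within 2-fold, 2 of them with a log2 ratio below 0. Fewer cells of a type and less RNA per cell cannot be told apart in such bulk samples, and the part of this shift in the values of the Bcl2 family was not tested. A value of 0 is not always an absence, because the cardiac actin gene Actc1 was listed at 0 in the control heart and at 9189 FPKM in the csMed1-/- heart. The row shared by the myosin genes Myh6 and Myh7 was likewise listed at 0 and at 647 FPKM. These cardiomyocyte markers are left out of the 5 above, and with Actc1 the summed levels were 33886 and 18481 FPKM, a ratio of 0.545.

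Bcl2, Bcl2l1 (the gene of Bcl-xL) and Mcl1 encode proteins that hold the effectors Bax and Bak in check. Once released, Bax and Bak form pores in the outer mitochondrial membrane, and cytochrome c leaves through them and activates caspases. The BH3-only proteins Puma (Bbc3), Noxa (Pmaip1) and Bim (Bcl2l11) sense damage or loss of survival signals and neutralise the anti-apoptotic proteins, and Bim and Puma are also held to activate the effectors directly. Bnip3 and Bnip3l (Nix) sit on the outer membrane, are known above all as receptors that mark mitochondria for removal by autophagy, and Bnip3 is a classic hypoxia-induced gene of heart muscle. Cardiomyocytes are seldom replaced and rest on Mcl1 and Bcl-xL for survival. Much of the control of this family lies in protein binding, cleavage and turnover, which mRNA levels do not show.

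RefSeq promoter windows (GRCm38.p6, the assembly also called mm10) were used for 8 of the 10 genes, 13 windows in all, and those of Bnip3l and Pmaip1 were not used here. Of these windows 4 are printed 5′ to 3′ as the 250 bases before the start of transcription. Bcl2l1 and Bax are shown because they were the members that passed 2-fold, Mcl1 because it had the lowest ratio, and Bnip3 because it is a hypoxia-regulated gene. Capitals mark the letters ACGTG, the core of the hypoxia response element, on either strand, and matches to the p53 half-site.
Bax, chr7:45466899-45467148, minus strand: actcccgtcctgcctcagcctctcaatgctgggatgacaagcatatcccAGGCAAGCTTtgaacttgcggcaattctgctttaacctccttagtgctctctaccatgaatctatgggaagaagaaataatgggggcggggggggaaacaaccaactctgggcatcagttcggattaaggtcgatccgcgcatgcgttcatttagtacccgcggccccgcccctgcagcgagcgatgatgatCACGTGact
Bcl2l1, chr2:152831729-152831978, minus strand: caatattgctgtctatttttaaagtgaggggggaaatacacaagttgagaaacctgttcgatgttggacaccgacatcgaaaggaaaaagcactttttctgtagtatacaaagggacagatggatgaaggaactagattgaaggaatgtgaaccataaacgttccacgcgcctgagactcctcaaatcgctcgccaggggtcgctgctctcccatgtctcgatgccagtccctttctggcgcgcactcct
Mcl1, chr3:95658471-95658720, plus strand: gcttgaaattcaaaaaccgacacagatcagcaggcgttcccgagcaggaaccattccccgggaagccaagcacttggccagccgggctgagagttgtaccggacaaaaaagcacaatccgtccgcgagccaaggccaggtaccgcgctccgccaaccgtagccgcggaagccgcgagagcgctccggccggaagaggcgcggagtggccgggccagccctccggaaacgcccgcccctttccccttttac
Bnip3, chr7:138909507-138909756, minus strand: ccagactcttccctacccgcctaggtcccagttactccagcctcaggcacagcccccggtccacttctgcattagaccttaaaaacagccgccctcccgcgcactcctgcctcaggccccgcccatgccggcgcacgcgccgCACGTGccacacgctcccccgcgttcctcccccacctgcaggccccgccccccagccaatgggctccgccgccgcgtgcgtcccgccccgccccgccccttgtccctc

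The Bax window holds a p53 half-site at bases -201 to -192 from the start and the E-box CACGTG at -9 to -4. CACGTG is its own reverse complement and holds ACGTG on both strands, so each of the E-boxes named here is also a pair of overlapping ACGTG matches. The Bnip3 window has the same E-box at -108 to -103, and a window of Bbc3 has it at -64 to -59 (window chr7:16310181-16310430, plus strand). No other window of a member held either of these motifs or a lone ACGTG. Of all 32851 RefSeq windows of this length, 6.02% hold the E-box, 16.6% hold the hypoxia core and 7.13% hold a p53 half-site, with both strands searched. The GC box GGGCGG, found in 32.7% of all windows, was present for Bcl2, Mcl1, Bax, Bbc3, Bcl2l11 and Bnip3 and in no window of Bcl2l1 or Bak1. The CCAAT box, in 33.8% of all windows, was present for Bbc3, Bcl2l11 and Bnip3. A match is a run of letters and not a bound site, and its absence from a window says nothing about the factor.

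Across the members, Bcl2l1 and Bax rose more than 2-fold in csMed1-/- heart and none fell more than 2-fold. A gene was counted when neither value was 0 and the larger reached 1 FPKM, which held for 8 of the 10 members and for 10489 genes in all. Past 2-fold were 2 of these 8 members, while 31.5% of all genes were past 2-fold, 13.6% higher and 18.0% lower. A count of 2 of 8 is therefore near the share in all genes. The median log2 ratio of the 8 members was 0.21, with a range from -0.74 to 1.38, and the median over all genes was -0.07 with quartiles of -0.72 and 0.55. Among the 5426 genes whose larger value reached 10 FPKM, the group that holds Bcl2l1, Mcl1, Bax, Bak1 and Bnip3, 15.1% were more than 2-fold higher.

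**Figure D1:**
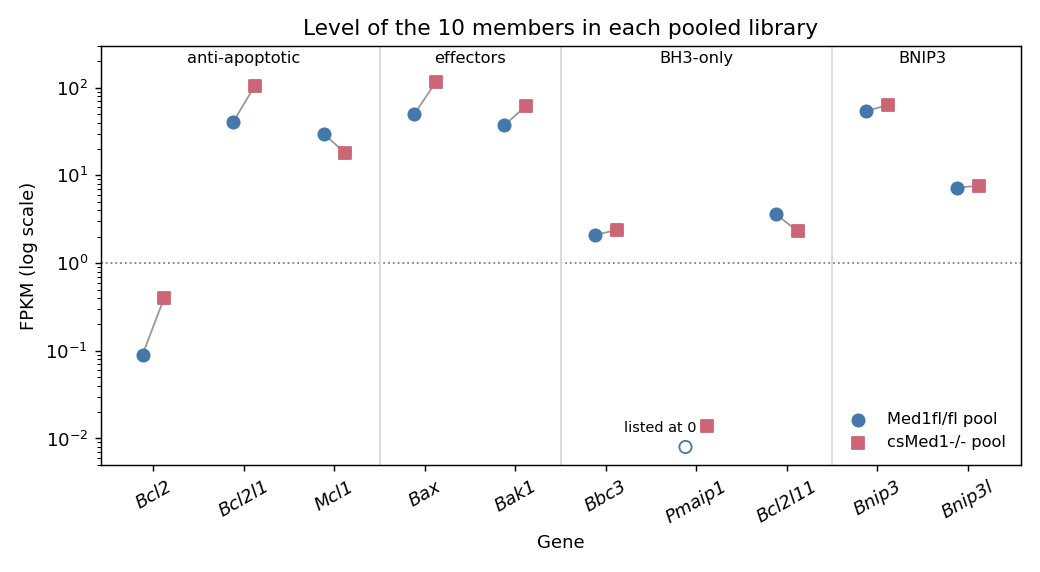
FPKM on a log scale of the 10 genes in the Med1fl/fl pool (blue circles) and the csMed1-/- pool (red squares), joined by a line for each gene and set out by role; the dotted line is at 1 FPKM and the open circle stands for a listed value of 0. Bcl2l1 and Bax, at 105 and 115 FPKM in csMed1-/- heart, lie highest, and Bcl2 and Pmaip1 lie below 1 FPKM in both.

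Bcl2l1 was listed at 40.4 FPKM in the Med1fl/fl heart and at 105 FPKM in the csMed1-/- heart. It rose 2.61-fold, a log2 ratio of 1.38, and 8.39% of all genes had a higher ratio. It moved from place 2036 to place 1008 when all genes were ordered by level. In GENCODE M21 (GRCm38) the gene spans 152780668 to 152831728 of chromosome 2, minus strand. Its long isoform, Bcl-xL, protects cells and its short isoform, Bcl-xS, opposes it, and gene-level FPKM does not separate them. Bcl-xL also protects maturing red blood cells. The erythroid gene Alas2 was listed at 35.8 FPKM in control heart and 82.1 FPKM in csMed1-/-, and the beta-globin genes, which share a row, at 7011 and 12718 FPKM. The alpha-globin genes share rows of their own, which had the smaller ratio of 1.36 each. The part of blood in the Bcl2l1 value was not tested.

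Mcl1, whose protein is short-lived and guards chiefly against Bak and Bim, was listed at 30.1 FPKM in the control heart and at 18.0 FPKM in the csMed1-/- heart. Its ratio was 0.597, or 1.67-fold lower, which is within 2-fold, and 24.4% of all genes had a lower ratio. Mcl1 spans 95658788 to 95663176 of chromosome 3, plus strand. Bcl2l1 and Mcl1 thus stood close together in the Med1fl/fl heart and far apart in the csMed1-/- heart. The ratio of Bcl2l1 to Mcl1 within a library was 1.34 in control and 5.86 in csMed1-/-, a change of 4.36-fold that does not depend on how the libraries were scaled. The GC content of their transcripts differs, 55.9% for Bcl2l1 and 48.7% for Mcl1. Their log2 ratios were 1.38 and -0.74 as listed. Less the median of all genes in the same bin of GC content they were 1.19 and -0.45, which lie closer together. The part of GC content in the change was not tested further.

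Bcl2, which gave the family its name, was near the bottom of the scale. It was listed at 0.0900 FPKM in control heart and 0.404 FPKM in csMed1-/-, below 1 FPKM in both, so it was not counted. Its plain ratio was 4.49, and with a pseudocount of 1 FPKM added to both values its log2 ratio went from 2.17 to 0.37. Bcl2 spans 106538178 to 106714274 on the minus strand of chromosome 1, and its exons overlap the gene D630008O14Rik on the other strand. The 3 anti-apoptotic genes summed to 70.5 FPKM in control and 124 FPKM in csMed1-/-. Bcl2l1 made up 57.3% of that sum in control and 85.1% in csMed1-/- heart, Mcl1 42.6% and 14.5%, and Bcl2 0.128% and 0.327%.

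**Figure D2:**
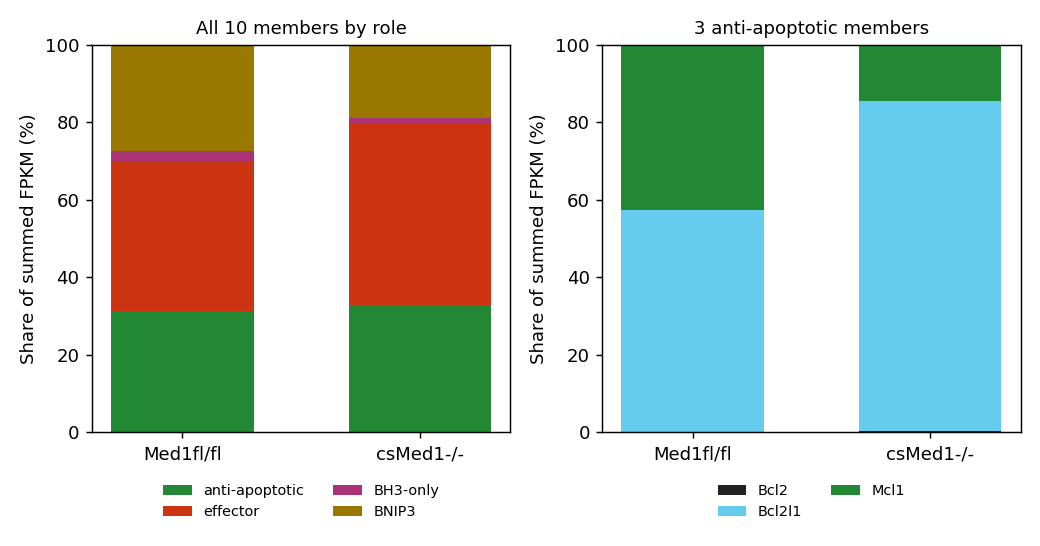
Share of summed FPKM in each pooled library, by role for all 10 genes (left) and by gene for the 3 anti-apoptotic genes (right), each bar adding to 100%. Bcl2l1 takes 57.3% of the anti-apoptotic sum in Med1fl/fl and 85.1% in csMed1-/- heart, the effectors take 38.7% and 47.1% of all 10 genes, and Bcl2 is too small a share to be seen.

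Bax, the effector that waits in the cytosol, was listed at 49.6 FPKM in the Med1fl/fl heart and at 115 FPKM in the csMed1-/- heart. It rose 2.32-fold, a log2 ratio of 1.22, and 10.2% of all genes had a higher ratio. In the csMed1-/- library it was the highest of the 10 genes, at place 933 of all genes, where in control it was second to Bnip3 and at place 1719. Bax spans 45461697 to 45466898 of chromosome 7, minus strand, and its exons overlap Gm45808 on the same strand. Bax is also a textbook p53 target, and the p53 half-site of its printed window is given with that in view and not as a measurement of p53.

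Bak1, whose protein is held in the outer mitochondrial membrane, was listed at 37.4 FPKM in control heart and at 62.6 FPKM in csMed1-/-. Its ratio of 1.68 lay within 2-fold, and 19.1% of all genes had a higher one. The gene (chromosome 17, 27019810 to 27029009, minus strand) shares exonic bases with Ggnbp1 on the opposite strand, which was listed at 80.0 and 43.1 FPKM. The libraries were directional, but whether strand was used in counting is not stated, so reads of the overlap cannot be assigned with certainty. The pair of effectors summed to 87.0 FPKM in control and 178 FPKM in csMed1-/-, and Bax stood to Bak1 as 1.33 and 1.84.

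Genes rich in G and C had higher ratios in this comparison, and Bax and Bcl2l1 are both GC-rich. Over 9470 genes with an annotated transcript, the median log2 ratio was -0.34 in the bin of 45.8 to 47.8% GC and 0.36 in the bin above 58.5% GC. The longest Bax transcript has 63.5% GC, that of Bcl2l1 55.9%, that of Bak1 57.1%, that of Mcl1 48.7% and that of Bcl2l11 48.0%. Less the median of its own bin, the log2 ratio was 0.86 for Bax, inside 2-fold, 1.19 for Bcl2l1, 0.52 for Bak1, -0.45 for Mcl1 and -0.34 for Bcl2l11. Bcl2l1 alone of the members was then past 2-fold, with 13.6% of all genes higher and 15.9% lower. The part of GC content in these ratios was not tested further.

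**Figure D3:**
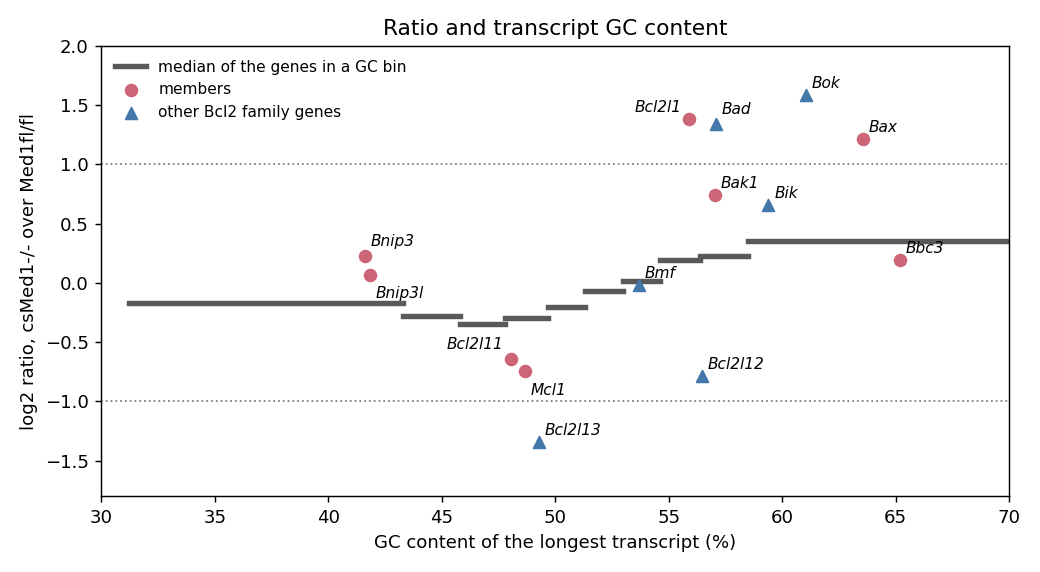
Log2 ratio of csMed1-/- over Med1fl/fl FPKM against the GC content of the longest annotated transcript, for the members (red circles), other Bcl2 family genes (blue triangles) and the median of all genes in each of 10 GC bins (grey bars; the last runs on to 82.9% and is cut at the edge of the plot). Dotted lines mark 2-fold. The bar medians go from -0.34 at 45.8 to 47.8% GC to 0.36 above 58.5% GC, and Bax and Bcl2l1 lie above the bars at their own GC content.

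The BH3-only members were low in both hearts, and none of them passed 2-fold. Bbc3, the gene of Puma and a p53 target, was listed at 2.09 FPKM in Med1fl/fl and 2.39 FPKM in csMed1-/- heart, for a ratio of 1.14. Its log2 ratio of 0.20 turned to -0.16 when the median of its GC bin was taken away. Bbc3 spans 16308393 to 16318205 of chromosome 7, plus strand.

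Bcl2l11, the gene of Bim, was listed at 3.60 FPKM in control heart and 2.31 FPKM in csMed1-/-, 1.56-fold lower. It spans 128126038 to 128162547 of chromosome 2, plus strand, and its many splice forms share this 1 value. Pmaip1, the gene of Noxa, was listed at 0 in control and at 0.0140 FPKM in csMed1-/- heart, and no ratio is given for it. The 3 BH3-only members summed to 5.69 FPKM in control and 4.72 FPKM in csMed1-/-, which was 2.53% and 1.25% of the sum of all 10 genes.

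Bnip3 and Bnip3l both had ratios near 1 between the genotypes. Bnip3 was listed at 54.4 FPKM in Med1fl/fl, the highest of the 10 genes there, and at 63.7 FPKM in csMed1-/- heart, for a ratio of 1.17. Bnip3l was listed at 7.27 and 7.62 FPKM, a ratio of 1.05. The ratio of Bnip3 to Bnip3l was 7.48 in control and 8.36 in csMed1-/-. Both are among the GC-poorest of the members, at 41.6% and 41.9%, and after taking away the median of their bin their log2 ratios were 0.40 and 0.24. Bnip3 spans 138890836 to 138909519 of chromosome 7, minus strand, where its exons overlap Gm45507 on the other strand, and Bnip3l spans 66985239 to 67008877 of chromosome 14, minus strand. Nix clears mitochondria from maturing red blood cells, and for Bnip3l too the part of blood, whose marker Alas2 is given above, was not tested.

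The order of the 10 genes by level differed little between the genotypes. In the Med1fl/fl heart it ran Bnip3, Bax, Bcl2l1, Bak1, Mcl1, Bnip3l, Bcl2l11, Bbc3, Bcl2 and Pmaip1. In the csMed1-/- heart Bax and Bcl2l1 stood above Bnip3, and Bbc3 stood just above Bcl2l11. With no replicates it cannot be said which neighbours in this order differ beyond the spread between hearts.

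**Figure D4:**
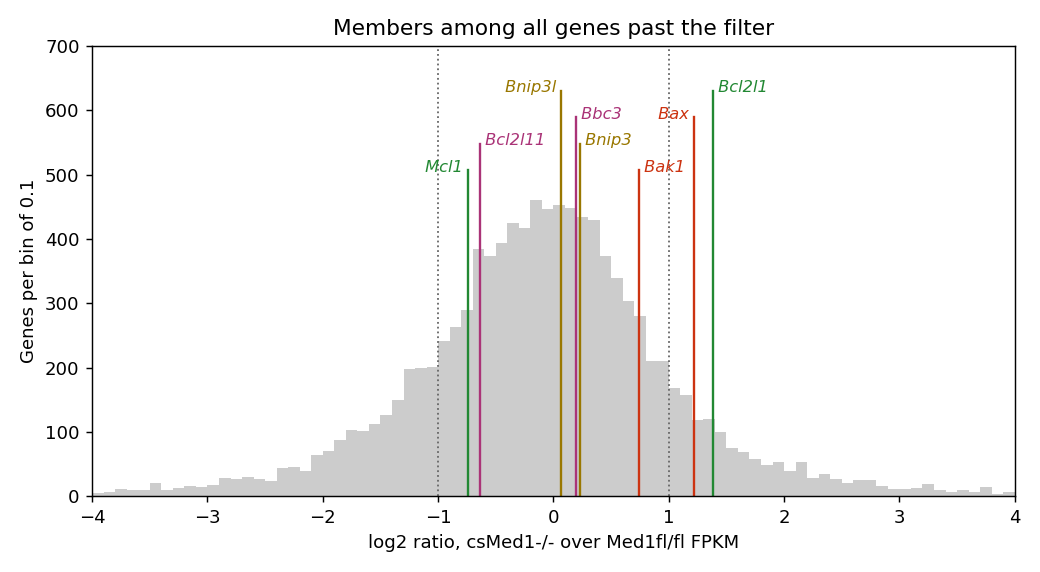
Histogram of the log2 ratio of csMed1-/- over Med1fl/fl FPKM for the 10489 genes that were counted (grey; 147 genes lie outside the plotted range), with a line at the ratio of each of the 8 members among them, coloured by role; line heights carry no value. Dotted lines mark 2-fold, and Bax at 1.22 and Bcl2l1 at 1.38 are the members beyond them.

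Ratios between members within a library do not depend on library scaling. Bax stood to Bcl2l1 as 1.23 in control and as 1.10 in csMed1-/-. Bak1 to Mcl1 went from 1.24 to 3.49, a change of 2.80-fold. These 2 genes differ in GC content, 57.1% and 48.7%. Their log2 ratios were 0.74 and -0.74 as listed, and 0.52 and -0.45 less the medians of their GC bins. The part of GC content in the ratios between members was not tested. The sum of Bax and Bak1 stood to the sum of Bcl2, Bcl2l1 and Mcl1 as 1.23 in control and as 1.44 in csMed1-/-, a change of 1.17-fold.

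The sum of the 3 BH3-only members stood to the anti-apoptotic sum as 0.0807 in control and 0.0382 in csMed1-/-, a change of 0.473-fold. That change holds for these members alone, because other BH3-only genes are left out of the sum. Of these, Bad was listed at 38.1 and 96.8 FPKM, Bik at 20.8 and 32.8 FPKM and Bmf at 4.14 and 4.10 FPKM. Bad and Bik each lay above the sum of the members, which was 5.69 and 4.72 FPKM. Mcl1 stood to Bcl2l11, its partner in binding, as 8.35 and 7.76. The much-used ratio of Bax to Bcl2 was 551 in control and 285 in csMed1-/-, a log2 change of -0.95. That value rests on the very low level of Bcl2, and with 1 FPKM added to each value the log2 change was 0.84, the other way. All 10 genes together summed to 225 FPKM in control and 378 FPKM in csMed1-/-, a ratio of 1.68.

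Of 15 other genes of the family, 14 had a row of their own, 6 could be counted, and among these Bok and Bad rose while Bcl2l13 fell. Their median log2 ratio was 0.32. Bok, a Bax-like effector, was listed at 6.07 FPKM in control heart and 18.2 FPKM in csMed1-/-, a rise of 2.997-fold. Bad, a BH3-only protein that binds Bcl-xL and Bcl-2 and is switched off by survival kinases, was listed at 38.1 and 96.8 FPKM, a rise of 2.54-fold. Bad was thus far above the BH3-only members, and the ratio of Bad to Bcl2l1 was 0.944 in control and 0.920 in csMed1-/-. Both Bok, at 61.0% GC, and Bad, at 57.1% GC, stayed past 2-fold less the median of their GC bin, at log2 1.23 and 1.12.

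Bcl2l13, a receptor for mitophagy in the outer membrane, was listed at 27.0 FPKM in control heart and 10.7 FPKM in csMed1-/-, a fall to a ratio of 0.395. Bik, a BH3-only gene, was listed at 20.8 and 32.8 FPKM and Bmf, another, at 4.14 and 4.10 FPKM, both within 2-fold. Bcl2l12 stood on 2 rows that summed to 13.8 and 7.996 FPKM, a log2 ratio of -0.78 that became -1.004 with its higher row alone and -1.01 less the median of its GC bin. Of the genes that were not counted, Bid was listed at 0.567 and 0.676 FPKM and Hrk at 0.333 and 0.0353 FPKM. Bcl2a1a, Bcl2a1b and Bcl2a1d, which are near-identical copies and share reads, were below 0.2 FPKM in both hearts, as was Bcl2l14, and Bcl2l10 and Bcl2l15 were listed at 0 in both. Bcl2l2 (Bcl-w) shared a row with its neighbour Pabpn1, at 18.3 and 13.7 FPKM, and was not read as a value of its own. In the family as a whole, 14 genes were counted, 4 rose, 1 fell and the median log2 ratio was 0.21, beside 13.6% of all genes that rose and 18.0% that fell.

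Of the genes that act after the pore has opened, 9 of 12 were counted, none rose and 3 fell, where 13.6% of all genes rose and 18.0% fell. Cycs, cytochrome c itself, was listed at 109 FPKM in control heart and 37.7 FPKM in csMed1-/-, a log2 ratio of -1.53. Aifm1, the mitochondrial apoptosis-inducing factor, went from 18.7 to 7.65 FPKM, and the executioner caspase gene Casp6 from 5.02 to 2.34 FPKM. Both came inside 2-fold less the median of their GC bin, at log2 -0.94 for Aifm1 and -0.81 for Casp6, and Casp6 also with a pseudocount of 1, at -0.85, so that Cycs alone of the 3 was past 2-fold with GC centring. Apaf1, the core of the apoptosome, at 0.378 and 0.354 FPKM, was too low to be counted, and is named outside the rule for named genes. The median log2 ratio of the list was -0.43. Cytochrome c and Aifm1 also serve respiration in every cell.

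Most mitochondrial partners of the family fell. Of 10 genes counted, 8 fell, Mtch2 and Dnm1l, named outside the rule, lay within 2-fold and the median log2 ratio was -1.36, against 18.0% of all genes that fell. Ppif (cyclophilin D), a regulator of the permeability transition pore, was listed at 378 and 73.0 FPKM. Slc25a4, the heart form of the adenine nucleotide carrier, was listed at 9228 and 2087 FPKM. Mfn1, which fuses outer membranes, was listed at 27.4 and 5.76 FPKM and the outer-membrane channel gene Vdac3 at 179 and 60.6 FPKM. Such genes are abundant in cardiomyocytes, whose 5 compared markers had a ratio of summed levels of 0.274. With Actc1 it was 0.545, but Actc1 was listed at 0 in control and so added to the csMed1-/- sum alone. The part of the lower cardiomyocyte markers in the values of the mitochondrial partners was not tested.

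Among 13 mitophagy genes counted, Fkbp8 and Gabarapl1 rose, Phb2 fell and 10 lay within 2-fold, with a median log2 ratio of 0.33. These counts are near or below the shares of all genes, 13.6% higher and 18.0% lower. Fkbp8, which binds Bcl-2 and Bcl-xL and is itself a mitophagy receptor, was listed at 165 and 344 FPKM, a log2 ratio of 1.06 that was 0.70 less the median of its GC bin. Gabarapl1, an autophagosome protein that Nix binds, was listed at 51.5 and 124 FPKM. Phb2, an inner-membrane receptor, was listed at 542 and 239 FPKM. Pink1, the kinase that marks damaged mitochondria, was listed at 607 and 314 FPKM, a log2 ratio of -0.95 that went past 2-fold, to -1.31, less the median of its GC bin.

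Of the death receptor genes 6 of 10 were counted, 2 rose and none fell, with a median log2 ratio of 0.67, beside 13.6% of all genes higher and 18.0% lower. Tnfrsf10b, the mouse TRAIL receptor, was listed at 1.37 and 3.87 FPKM, and the adaptor gene Tradd at 7.07 and 18.7 FPKM. Tnfrsf1a, the main TNF receptor, was listed at 49.4 and 96.0 FPKM, and the adaptor gene Fadd at 13.6 and 17.7 FPKM, both within 2-fold. With ratios centred on their median or scaled to the 75th percentile, Tnfrsf1a was just past 2-fold, at log2 1.03 and 1.01. Of 8 inhibitor of apoptosis genes in the tables, 3 were counted, with a median log2 ratio of -0.06. Birc5 (survivin), which also serves cell division, rose from 0.780 to 2.26 FPKM but was inside 2-fold with a pseudocount of 1, at log2 0.87. Birc3 was listed at 1.44 and 1.24 FPKM and Birc6 at 1.47 and 1.42 FPKM.

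Among genes of the p53 pathway, 9 of 12 were counted, 4 rose and 1 fell, with a median log2 ratio of 0.15. Of all genes 13.6% rose and 18.0% fell. Cdkn1a, the cell cycle inhibitor p21, rose from 30.5 to 693 FPKM, a log2 ratio of 4.51. Phlda3, an inhibitor of Akt, rose from 16.4 to 86.8 FPKM, and Zmat3 rose from 2.43 to 7.18 FPKM. Gadd45a, a stress gene, fell from 4.35 to 1.41 FPKM. Trp53, Mdm2, Ccng1 and Aen, named outside the rule, lay within 2-fold. Trp53 was listed at 22.0 and 24.4 FPKM and Mdm2 at 2.33 and 1.93 FPKM. Ccng1 was listed at 11.6 and 5.95 FPKM and Aen at 16.1 and 15.7 FPKM. The p53 targets among the members were listed with ratios of 2.32 for Bax and 1.14 for Bbc3, and Pmaip1 was near 0.

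Of transcription factors with known BH3-only targets and their partners, 7 of 8 were counted and Trib3 alone passed 2-fold, beside 31.5% of all genes. Trib3 went from 3.99 to 9.25 FPKM. Less the median of its GC bin its log2 ratio was 0.99, just inside 2-fold. Foxo3, an activator of Bcl2l11, was listed at 15.9 and 10.1 FPKM. The ratio of Bcl2l11 was 0.643, and a link between these values was not tested. Atf4 was listed at 49.5 and 77.1 FPKM and Ddit3 (CHOP) at 11.4 and 15.9 FPKM. The median log2 ratio of the list was 0.03.

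Of 12 hypoxia genes, 4 rose, 3 fell and the median log2 ratio was 0.43, beside 13.6% and 18.0% of all genes, while Bnip3 stood at a log2 ratio of 0.23. Car9, carbonic anhydrase 9, went from 0.0949 to 5.96 FPKM, the vasodilator gene Adm from 4.25 to 21.2 FPKM and the glucose transporter gene Slc2a1 from 13.5 to 33.0 FPKM. Egln1, the oxygen sensor that marks HIF for breakdown, fell from 139 to 37.9 FPKM. Car9 stood on 4 rows, of which 3 were listed at 0 in control, and its sum reached 1 FPKM in csMed1-/- heart alone. The other gene that rose, Hif1a, named outside the rule, went from 1.44 to 2.91 FPKM. Its log2 ratio of 1.02 was just past 2-fold.

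Of 8 genes that control the turnover or tethering of Mcl1, Bim and Bmf, 1 rose and 2 fell, near the 13.6% and 18.0% of all genes, with a median log2 ratio of -0.40. Fbxw7, a ubiquitin ligase subunit for Mcl1, fell from 2.34 to 0.658 FPKM. Usp9x, which spares Mcl1 from breakdown, was listed at 1.23 and 2.18 FPKM, within 2-fold. The light chain gene Dynll1, whose protein tethers Bim, rose from 12.7 to 32.2 FPKM, and Dynll2, whose protein tethers Bmf, fell from 90.6 to 37.0 FPKM.

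**Figure D5:**
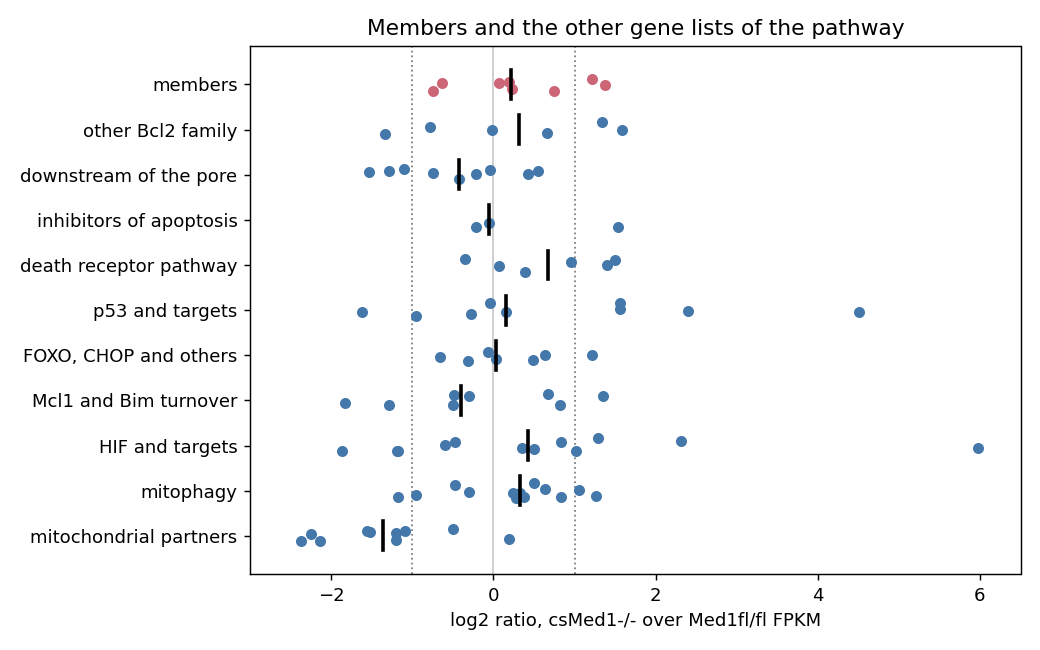
Log2 ratio of csMed1-/- over Med1fl/fl FPKM of every counted gene in the members (red) and in 10 lists of related genes (blue), 1 point a gene, with the median of each list as a black bar and 2-fold as dotted lines; vertical offsets within a list carry no value. The members span -0.74 to 1.38 around a median of 0.21, the mitochondrial partners have the lowest median at -1.36 and the death receptor genes the highest at 0.67.

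Markers of other cells were read beside these lists, and beside the 13.6% of all genes that rose and the 18.0% that fell. Of 6 endothelial markers, 3 fell and none rose, with summed levels of 404 and 263 FPKM. Of 5 smooth muscle and pericyte markers, 1 rose and 1 fell, with sums of 660 and 464 FPKM. Of the macrophage markers, 5 were counted and 1 rose, with sums of 164 and 130 FPKM. Of 5 lymphocyte and neutrophil markers, 2 were counted and both rose, with sums of 4.18 and 10.4 FPKM. Which of these cells carried the RNA of Bcl2l1 or Bax was not tested.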

How the data were processed

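Polyadenylated heart RNA (1 pool of 5 mice per genotype) was sequenced as 50 nt single-end reads from directional libraries. Per the study's methods, the authors aligned reads to mm10 with TopHat 2.0.8b and computed the deposited FPKM values of known UCSC genes with Cufflinks and Cuffdiff 2.1.1. The submitters' processing notes also list STAR 2.4.0h, with no role. The library scaling is not stated.

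The tables hold 23424 rows and 22882 symbols. Rows sharing a symbol, as for 412 symbols, were summed, and 210 rows that join several symbols were kept apart. The plain ratio of csMed1-/- to Med1fl/fl FPKM was taken for the 10489 genes with neither value at 0 and the larger at 1 FPKM or more, and called past 2-fold above 2 or below 0.5. No test was possible with 1 library per genotype. Groups came from the genotype labels. Members and lists were chosen with earlier results of these data known. Named were all members, Med1, other family genes that were counted, and up to 4 genes per further list with the largest absolute log2 ratio. Some genes under this rule are not reported here. Marker lists were meant to give counts and sums alone, and Actc1, Alas2, the globin rows and the row of Myh6 and Myh7 were named after their values were seen.

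Alternatives were pseudocounts of 0.1 and 1, no filter, filters of 1 FPKM in both and 10 FPKM in at least one library, ratios centred on their median, 75th percentile scaling, the 100 highest genes left out of the scaling sum, the highest row of a symbol, and a 4-fold threshold. Centring within 10 bins of GC content, matched by symbol for 90.3% of genes, was added after seeing the data. The calculation was tested on simulated data. Annotation was GENCODE M21, and promoter windows and their letters came from RefSeq. Python 3.11.15, numpy 2.4.6, pandas 2.3.3 and matplotlib 3.10.9 were used.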

Additional observations from a re-analysis of the deposited data

How the results depend on the processing

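The count of 2 members past 2-fold, Bcl2l1 and Bax, was found again with both pseudocounts and all 3 other scalings. It was also found with both stricter filters and the highest row per symbol, but these could not change it. Each member stood on 1 row, and Bcl2l1 and Bax lay above 10 FPKM in both libraries. Without a filter Bcl2 joined them, as 3 of 9 members, beside 35.7% of all genes. The count was 1 with ratios centred in GC bins, chosen after seeing the data, since Bax then had a log2 ratio of 0.86, and 0 at 4-fold, which 9.46% of all genes passed. The median log2 ratio of the members lay between 0.18, with a pseudocount of 1, and 0.74, over the 5 members at 10 FPKM or more. The log2 change of Bax to Bcl2 turned to 0.84 with a pseudocount of 1, which outweighs the level of Bcl2. The 3 other scalings moved all log2 ratios by 0.071, 0.050 and -0.014, less than the distance of Bax, at 1.22, from 2-fold. The log2 ratio changed sign for Bbc3, to -0.16, Birc3, to 0.13, and Birc6, to 0.29, with GC centring, for Birc6, to 0.014, with median centring, and for Bmf, to 0.055 and 0.034, with median centring and 75th percentile scaling. Car9 gave no ratio with its highest row alone, which was at 0 in control. Of 355 values of 51 named genes over the alternatives, 336 kept their direction and their side of 2-fold. Of the rest, 6 changed sign, 8 came inside 2-fold and 5 went past it. Many of these values had little or no room to change. The highest row is the same value for a gene on 1 row, and the 3 scalings added small constants. No replicate could be left out and no paired analysis was possible because each genotype has 1 library. Absolute depth is unknown, which leaves values below 1 FPKM, those of Bcl2 and Pmaip1 among them, without a known precision.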
